A study of Homo sapiens with 6 samples.

Results

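The transcripts described are those of 13 families of solute carriers that exchange or carry inorganic ions: the SLC8 and SLC24 sodium-calcium exchangers, the SLC9 sodium-hydrogen exchangers, the SLC4 and SLC26 bicarbonate and anion exchangers, the SLC12 cation-chloride cotransporters, the SLC20 and SLC34 phosphate transporters, the SLC30 and SLC39 zinc transporters, the SLC11 and SLC40 iron transporters and the SLC41 magnesium transporters. Members were taken by gene symbol, as every gene named with 1 of these family numbers followed by A and a number, which gave 85 of the 20061 genes in the table. This choice was made with earlier results of these data known. Polyadenylated RNA had been sequenced from HEYA8, an established line of ovarian cancer (low grade serous, per the labels), in which a lentivirus stably expressed a short hairpin RNA. The hairpin targeted the transcription factor ETS1 in shETS1 (3 samples) and luciferase, a reporter enzyme that human cells lack, in the negative control shLuciferase (3 samples). Both groups were grown in puromycin and received no other treatment. The labels give neither the number of hairpins used against ETS1, nor whether the cells were a pool or a clone, nor whether a group's samples came from separate cultures, and the p-values may therefore measure technical spread only.

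These carriers set the ionic composition of the cytosol and of the organelles. Exchangers such as those of SLC8, SLC24, SLC9 and SLC4 use the gradient of 1 ion to move another, and so export calcium from the cytosol or mitochondria, acid from the cytosol, or bicarbonate in either direction. SLC30 proteins move zinc out of the cytosol, into organelles or out of the cell, and SLC39 proteins move zinc and related metals into it. The cation-chloride cotransporters of SLC12 adjust cell volume and chloride.

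Levels are the authors' FPKM (fragment numbers corrected for transcript length and sequencing depth). Each gene has 1 such value in shETS1 and 1 in shLuciferase, so the spread between samples could not be computed and the depth of a sample is unknown. ETS1 itself (chromosome 11, 128328656 to 128457453, hg19) stood at 17.9 FPKM in shETS1 and 41.4 FPKM in shLuciferase, a level 56.9% lower (q = 0.00964 in the authors' deposited table). Of 11 markers fixed for an epithelial ovarian carcinoma, KRT8, KRT18, KRT7 and PAX8 were abundant and the others were low or near 0. The 11 levels summed to 3792 FPKM in shETS1 and 5244 FPKM in shLuciferase, mostly from KRT8, KRT18 and KRT7. EPCAM, KRT19, WT1 and MECOM were at 1.82, 3.80, 3.13 and 8.39 FPKM in shETS1. In shLuciferase they were at 1.71, 3.55, 3.58 and 9.71 FPKM. KRT8 had 1288 FPKM in shETS1 and 1913 FPKM in shLuciferase, KRT18 had 1498 FPKM in shETS1 and 2044 FPKM in shLuciferase, and KRT7 had 910 FPKM in shETS1 and 1187 FPKM in shLuciferase. PAX8 was at 76.8 FPKM in shETS1 and 79.7 FPKM in shLuciferase, and SOX17 at 2.38 FPKM in shETS1 and 1.15 FPKM in shLuciferase (p = 0.00145 and q = 0.110 in the authors' deposited table). None of the 9 tested was called, and CDH1, the epithelial cadherin, and MUC16 were listed at 0 in shETS1 and below 0.01 FPKM in shLuciferase. Of 4 mesenchymal markers, FN1 had 632 FPKM in shETS1 and 415 FPKM in shLuciferase, and CDH2 and ZEB1 lay within 1.3-fold between the groups. None of these 3 was called. VIM was marked as having too much data to test and was listed at 0 in shETS1 and 7171 FPKM in shLuciferase. Its levels therefore cannot be compared between the groups. Summed levels in shETS1 and shLuciferase were 0.628 and 0.780 FPKM for 5 leukocyte markers, 3.82 and 1.33 FPKM for 6 fibroblast markers, 5.53 and 18.2 FPKM for the 4 endothelial markers found and 0.358 and 0.121 FPKM for 4 adipocyte markers. PTPRC, TYROBP, CD3E, COL3A1, DCN and LEP were at 0 in both groups. The fibroblast and endothelial sums rest on COL1A1, called higher, and CDH5, called lower. The part of all these markers in the results below was not tested. In these bulk samples, fewer cells of a kind and less RNA per cell cannot be told apart.

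Since the groups differ in a transcription factor whose family binds DNA at a GGAA core, the promoter of the member that was called is shown beside 1 window each of 2 zinc importers that were not called, SLC39A1 and SLC39A9, which hold the longer ETS family letters described after the sequences. The windows run from 250 bases before to 50 bases after a RefSeq transcription start on GRCh38.p14, 5′ to 3′ on the gene's strand, with GGAA on either strand in capitals (TTCC where it lies on the other strand). The first is chr12:113335060-113335359, the second chr1:153963488-153963787 (both minus strand) and the third chr14:69398134-69398433 (plus strand).
SLC24A6: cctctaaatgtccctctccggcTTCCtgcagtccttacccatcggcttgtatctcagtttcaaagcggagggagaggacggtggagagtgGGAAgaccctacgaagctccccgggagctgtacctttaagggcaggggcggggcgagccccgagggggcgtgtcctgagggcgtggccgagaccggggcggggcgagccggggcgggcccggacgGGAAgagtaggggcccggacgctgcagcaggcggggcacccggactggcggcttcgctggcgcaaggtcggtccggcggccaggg
SLC39A1: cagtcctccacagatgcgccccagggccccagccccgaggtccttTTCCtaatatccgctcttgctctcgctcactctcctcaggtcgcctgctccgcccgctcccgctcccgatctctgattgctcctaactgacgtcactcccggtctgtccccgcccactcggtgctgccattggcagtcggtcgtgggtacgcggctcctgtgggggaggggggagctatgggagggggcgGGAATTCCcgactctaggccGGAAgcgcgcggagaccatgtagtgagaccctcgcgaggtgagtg
SLC39A9: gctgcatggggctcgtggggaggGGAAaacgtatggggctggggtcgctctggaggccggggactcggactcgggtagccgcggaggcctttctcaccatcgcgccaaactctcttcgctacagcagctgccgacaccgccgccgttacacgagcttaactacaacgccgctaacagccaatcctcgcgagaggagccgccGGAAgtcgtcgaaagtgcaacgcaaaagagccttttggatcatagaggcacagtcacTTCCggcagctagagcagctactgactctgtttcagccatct

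The SLC24A6 window held GGAA at 3 places, 2 of them on the printed strand, beginning at bases 91 and 216 of the window, and 1 on the other strand at base 23. It held neither of the longer ETS family letters searched on both strands, CCGGAAG and CCGGAAGT. The SLC39A1 window held CCGGAAG at base 254, and the SLC39A9 window held CCGGAAGT at base 200 on the printed strand and at base 257 on the other. Each of these importers has a second RefSeq window, not shown: that of SLC39A9 also held CCGGAAGT, and that of SLC39A1 held no CCGGAAG. Across promoter windows of protein-coding genes, 95.2% of 22180 held GGAA, 12.8% held CCGGAAG, which contains GGAA, and 5.34% held CCGGAAGT, which contains both. Windows were found for 70 of the 85 members (107 windows, since some genes have several starts), of which 89.7% held GGAA, 10.3% CCGGAAG and 2.80% CCGGAAGT. Among the 40 tested members with a window, CCGGAAG occurred in 7 (SLC26A6, SLC30A6, SLC30A7, SLC39A1, SLC39A8, SLC39A9 and SLC9A8), of which 0 were called, beside 1 of the 33 without it. With 0.812% of all tested genes called in either direction, these counts are too small to compare.

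One ion exchanger fell after ETS1 knockdown and no other member of the families passed the test. Of 48 tested members, SLC24A6 was called lower and none was called higher at q, the p-value adjusted over all tested genes, of at most 0.05 in the authors' deposited table. Over all 11952 tested genes 0.812% were called, 0.268% being lower and 0.544% higher in shETS1, so the count of 1 in 48 describes SLC24A6 and not the families. SLC24A6 was also the only member with an unadjusted deposited p under 0.05, against 6.94% of all tested genes. Among 246 other genes with an SLC family name, 125 were tested and 2 were called, SLC7A11 higher and SLC37A1 lower.

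SLC24A6, now named SLC8B1, encodes NCLX, the exchanger that returns calcium from the mitochondrial matrix to the cytosol in exchange for sodium or lithium. It stood at 12.7 FPKM in shETS1, against 28.1 FPKM in shLuciferase, a 2.20-fold lower level and a log2 fold change (shETS1 over shLuciferase, as throughout) of -1.14. Its p-value in the authors' deposited table was 5.00e-05, the smallest the table holds and the value of 62 called genes, and its q-value there was 0.00964. Of the 10676 tested genes with a mean of at least 1 FPKM, 19 had a lower log2 fold change. Its locus (chromosome 12, 113736571 to 113772925, hg19) overlapped no other gene at 1 FPKM or more.

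The genes beside it on chromosome 12 had group values closer to each other. TPCN1, an endolysosomal cation channel gene whose locus ends 182 bases from that of SLC24A6, was at 4.69 FPKM in shETS1 and 4.98 FPKM in shLuciferase. PLBD2, which begins 23446 bases away on the other side, was at 11.1 FPKM in shETS1 and 13.8 FPKM in shLuciferase. Of 5 tested genes within 250000 bases on either side, DDX54 and C12orf52 had log2 fold changes of -0.20 and -0.13, and SDSL, a serine dehydratase-like gene, was at 3.82 FPKM in shETS1 and 2.49 FPKM in shLuciferase with q = 0.687 in the authors' deposited table. None of these neighbours was called.

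**Figure D1:**
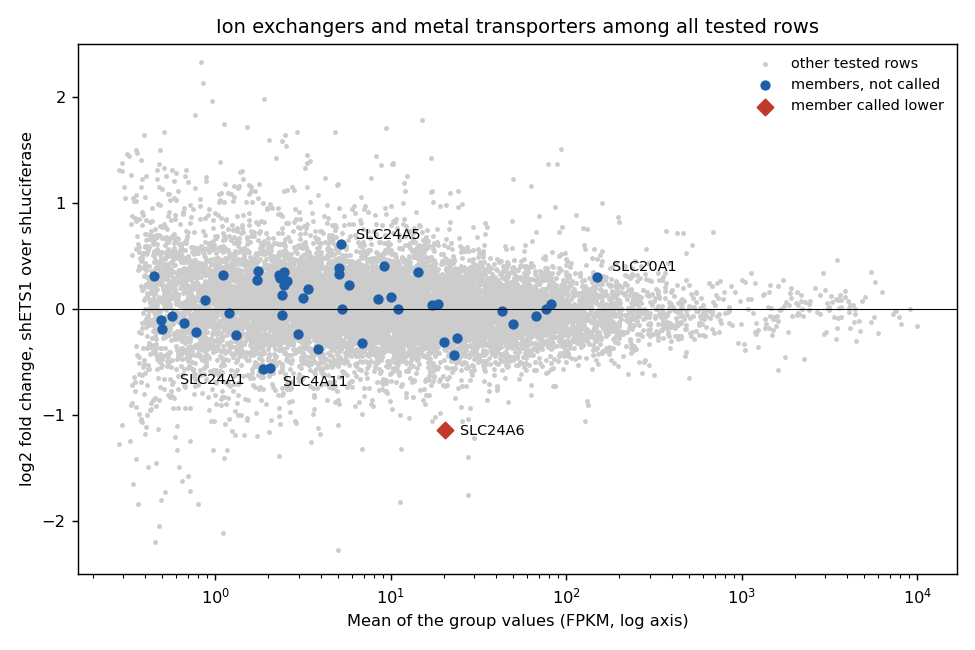
The vertical axis is the log2 fold change of shETS1 over shLuciferase, drawn against the mean of the group values in FPKM (horizontal log axis) for tested genes, with members in blue or, where called, as a red diamond and other genes in grey; genes with no finite fold or beyond the axes are not drawn. SLC24A6 lies at -1.14, and the other 47 tested members lie between -0.57 and 0.61.

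The other sodium-calcium exchangers were scarce or uncertain. SLC24A1, the potassium-dependent exchanger of rod photoreceptors, was at 1.51 FPKM in shETS1 and 2.24 FPKM in shLuciferase (log2 fold change -0.57), with q = 0.970 in the authors' deposited table. SLC24A5, an exchanger of intracellular membranes known for its role in pigmentation, was at 6.31 FPKM in shETS1 and 4.13 FPKM in shLuciferase, a 1.53-fold difference with a deposited p of 0.440 in the authors' deposited table. The locus of SLC24A1 overlaps that of the expressed gene DENND4A and the locus of SLC24A5 that of MYEF2, and without a strand-marking step their reads may not be separable. All 3 exchangers of the plasma membrane family SLC8 were untested, the highest being SLC8A1, the cardiac sodium-calcium exchanger, at 0.196 FPKM in shETS1 and 0.129 FPKM in shLuciferase. SLC24A6 thus made up most of the summed level of these 9 genes, which was 20.8 FPKM in shETS1 and 34.6 FPKM in shLuciferase.

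Of the sodium-hydrogen exchangers 7 were tested and none was called. SLC9A8, of the Golgi, was at 5.28 FPKM in shETS1 and 5.29 FPKM in shLuciferase. SLC9A7, of the trans-Golgi network, had 2.66 FPKM in shETS1 and 2.28 FPKM in shLuciferase. SLC9A3, SLC9A4 and SLC9A5 were tested at 0.467 to 0.551 FPKM in shETS1 and 0.508 to 0.575 FPKM in shLuciferase, and the remaining 4 of 11 family members were untested.

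Bicarbonate transporters split into abundant SLC4A2 and several scarce genes. SLC4A2, the chloride-bicarbonate exchanger AE2 of most epithelia, was at 21.6 FPKM in shETS1 and 26.1 FPKM in shLuciferase, in a locus that overlaps the transcript AK296065. SLC4A11, a membrane transporter mutated in corneal endothelial dystrophy, was at 1.67 FPKM in shETS1 and 2.45 FPKM in shLuciferase (log2 fold change -0.55). Its p-value of 0.0522 in the authors' deposited table was the lowest of any member after SLC24A6, with a q-value of 0.737 there. SLC4A7, a sodium-bicarbonate cotransporter, was at 2.58 FPKM in shETS1 and 2.11 FPKM in shLuciferase. The exchanger SLC4A3 had 1.97 FPKM in shETS1 and 1.54 FPKM in shLuciferase, and the sodium-driven SLC4A8, whose locus overlaps GALNT6, had 1.24 FPKM in shETS1 and 0.991 FPKM in shLuciferase. SLC4A5 was below 1 FPKM in both groups and 4 of the 10 family members were untested.

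In the SLC26 family of multispecific anion exchangers, SLC26A6, which exchanges chloride for oxalate or bicarbonate, was listed at 11.0 FPKM in both groups. SLC26A2, the sulfate transporter known from cartilage, was at 2.56 FPKM in shETS1 and 2.04 FPKM in shLuciferase. SLC26A11 had 2.35 FPKM in shETS1 and 2.45 FPKM in shLuciferase. SLC26A1, whose locus overlaps IDUA, stayed under 1 FPKM, and 7 of 11 family members were untested.

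Cation-chloride cotransporters were represented by 5 tested genes of 9. SLC12A4, the potassium-chloride cotransporter KCC1, was at 17.4 FPKM in shETS1 and 16.9 FPKM in shLuciferase, with a locus that overlaps LCAT. SLC12A9 had 6.13 FPKM in shETS1 and 7.64 FPKM in shLuciferase. SLC12A2, the sodium-potassium-chloride cotransporter NKCC1, was scarce, at 1.18 FPKM in shETS1 and 1.21 FPKM in shLuciferase, as was the potassium-chloride cotransporter SLC12A7 (1.20 and 1.43 FPKM in shETS1 and shLuciferase). Of the kidney transporters, both untested, SLC12A1 was listed at 0 and SLC12A3 below 0.01 FPKM in both groups.

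Phosphate entry genes included the most abundant member. SLC20A1, the sodium-phosphate cotransporter PiT-1, was at 167 FPKM in shETS1 and 135 FPKM in shLuciferase (log2 fold change 0.31), and SLC20A2, PiT-2, was at 16.0 FPKM in shETS1 and 12.5 FPKM in shLuciferase (log2 fold change 0.35). Neither was called, with p = 0.214 and p = 0.172 in the authors' deposited table. The locus of SLC20A2 overlaps C8orf40. The epithelial SLC34 phosphate transporters were untested, with SLC34A2 at 0 in both groups and SLC34A1 and SLC34A3 under 0.1 FPKM.

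**Figure D2:**
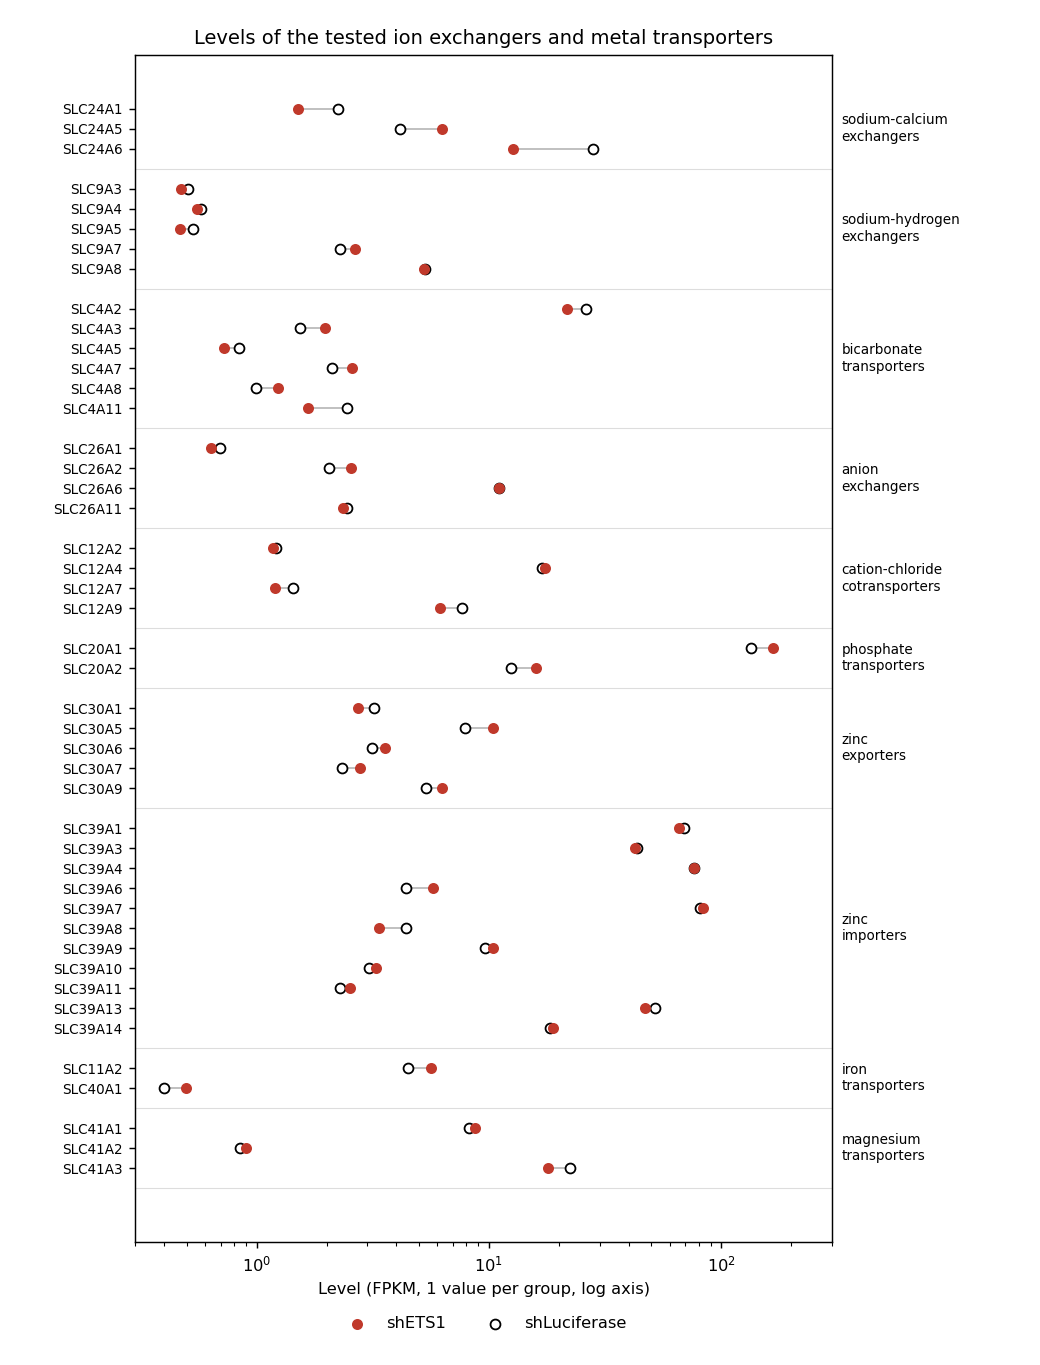
Level in FPKM (horizontal log axis, 1 value per group) of 45 of the 48 tested members, grouped by transported ion, with filled red circles for shETS1 and open circles for shLuciferase. The widest gap is that of SLC24A6, at 12.7 FPKM in shETS1 and 28.1 FPKM in shLuciferase, and SLC20A1 lies farthest right.

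Zinc importers were the most abundant family, and their levels in the groups lay close together. Their 14 genes summed to 360 FPKM in shETS1 and 364 FPKM in shLuciferase. SLC39A7, which releases zinc from the endoplasmic reticulum, was at 83.6 FPKM in shETS1 and 80.7 FPKM in shLuciferase, counted on an alternative haplotype contig of chromosome 6 in a locus that overlaps RXRB. SLC39A4, the intestinal importer mutated in acrodermatitis enteropathica, was at 76.6 FPKM in shETS1 and 76.5 FPKM in shLuciferase. SLC39A1 had 66.1 FPKM in shETS1 and 69.2 FPKM in shLuciferase, SLC39A13 had 47.1 FPKM in shETS1 and 51.9 FPKM in shLuciferase, and SLC39A3 had 42.7 FPKM in shETS1 and 43.2 FPKM in shLuciferase. Together with SLC20A1 these 5 importers held 66.0% of the summed member FPKM in shETS1 and 63.2% in shLuciferase. SLC39A14, which also carries iron and manganese, was at 18.9 FPKM in shETS1 and 18.3 FPKM in shLuciferase, and SLC39A9, whose promoter is printed above, at 10.4 FPKM in shETS1 and 9.64 FPKM in shLuciferase.

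The importers farthest from equality were SLC39A6 and SLC39A8. SLC39A6, a plasma membrane importer first described as an oestrogen-induced gene, was at 5.75 FPKM in shETS1 and 4.39 FPKM in shLuciferase (log2 fold change 0.39), and SLC39A8, an importer of zinc and manganese, was at 3.36 FPKM in shETS1 and 4.38 FPKM in shLuciferase (log2 fold change -0.38). The authors' deposited table gives them q = 0.994 and q = 0.992. SLC39A10, the close relative of SLC39A6, was at 3.28 FPKM in shETS1 and 3.05 FPKM in shLuciferase, and SLC39A11 at 2.52 FPKM in shETS1 and 2.29 FPKM in shLuciferase. The family had a median log2 fold change of 0.05 over 11 tested genes, 7 above 0 and 4 below.

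Zinc exporters were less abundant, summing to 26.2 FPKM in shETS1 and 22.3 FPKM in shLuciferase. SLC30A5 and SLC30A6, which form a complex that loads zinc into the secretory pathway, were at 10.4 and 3.57 FPKM in shETS1 and at 7.90 and 3.14 FPKM in shLuciferase. SLC30A7, of the Golgi, had 2.79 FPKM in shETS1 and 2.32 FPKM in shLuciferase, and SLC30A9 had 6.26 FPKM in shETS1 and 5.36 FPKM in shLuciferase. The plasma membrane exporter SLC30A1, a zinc-induced gene, had the other sign, at 2.72 FPKM in shETS1 and 3.21 FPKM in shLuciferase. No exporter was called among the 5 tested, 4 of them above 0, and the median of their log2 fold changes was 0.22. Their transcripts were poor in GC, with a median of 39.1%, and after removal of the trend of fold change on GC content described below their median was 0.02.

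Of the iron transporters, SLC11A2, the importer DMT1, was at 5.64 FPKM in shETS1 and 4.50 FPKM in shLuciferase. SLC40A1, the iron exporter ferroportin, was at 0.497 FPKM in shETS1 and 0.400 FPKM in shLuciferase. SLC11A1, the phagosomal transporter of macrophages, was untested at 0.0282 FPKM in shETS1 and 0.0382 FPKM in shLuciferase. All 3 magnesium transporters were tested. SLC41A3 was at 18.0 FPKM in shETS1 and 22.3 FPKM in shLuciferase, SLC41A1, a sodium-magnesium exchanger, at 8.75 FPKM in shETS1 and 8.17 FPKM in shLuciferase, and SLC41A2 at 0.901 FPKM in shETS1 and 0.849 FPKM in shLuciferase. No iron or magnesium transporter was called.

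Low levels marked the 37 members that the authors did not test. The highest was SLC12A8, at 0.390 FPKM in shETS1 and 0.398 FPKM in shLuciferase, followed by the zinc exporter SLC30A4 at 0.363 FPKM in shETS1 and 0.326 FPKM in shLuciferase. Of the 37, 7 were listed at 0 in both groups and 6 at 0 in 1 group, among them tissue-restricted genes such as SLC30A8, the zinc transporter of insulin granules, SLC26A5, which encodes prestin of the outer hair cells, and SLC12A1 of the kidney.

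As a whole the families had a median close to that of all genes. The median log2 fold change was 0.05 over the 41 tested members whose group values averaged 1 FPKM or more, beside 0.02 over the 10676 such genes of the table and 0.05 over 104 other SLC genes. Of the 41, 16 were below 0 (39.0%), beside 47.4% of all such genes. Differences under 1.3-fold in either direction were seen in 33 of 41 members (80.5%) and in 82.1% of all such genes. No called gene anywhere in the table differed by less than 1.83-fold, and apart from SLC24A6 the largest difference of a tested member was the 1.53-fold of SLC24A5. Genes with a deposited p near 0.05 differed by a median of 1.49-fold at 1 to 5 FPKM, 1.42-fold at 5 to 20 FPKM and 1.39-fold both at 20 to 100 FPKM and, over 10 genes, above 100 FPKM. SLC20A1, the 1 tested member above 100 FPKM, differed by less (1.24-fold higher). Of the other tested members, SLC24A6 and SLC24A5 were past the value of their range of levels. For SLC24A5, not called, p was 0.440 in the authors' deposited table.

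**Figure D3:**
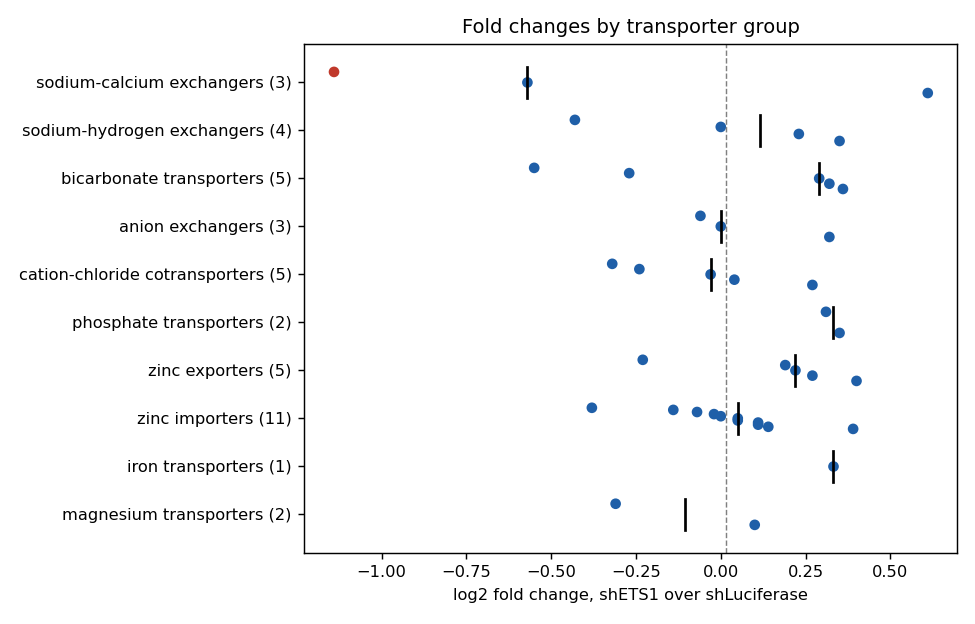
The horizontal axis gives log2 fold changes, shETS1 over shLuciferase, for the 41 tested members averaging 1 FPKM or more, by transporter group with the number of genes in parentheses. Blue points were not called, the red point is SLC24A6, black bars are group medians and the dashed line is the median of all such genes, 0.02.

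Fold changes of the members were inversely related to the GC content of their transcripts, and so were those of all genes. Across the 41 members, Spearman's rho between log2 fold change and transcript GC content was -0.50, and across 10477 expressed genes with a GC value it was -0.47. These points are genes measured in the same libraries, not independent replicates. Of 21 members below the median GC content of expressed genes (49.9%), 17 had a log2 fold change above 0 and 4 below, with a median of 0.27. Of 20 members at or above it, 8 were above 0 and 12 below, with a median of -0.04. Over all expressed genes with a GC value, 72.3% below the median GC content and 33.0% at or above it had a log2 fold change above 0. Their corresponding medians were 0.13 and -0.10. SLC24A6 has a GC content of 57.6%, where the trend lies at -0.10, and its log2 fold change with the trend removed was -1.04. For SLC4A11 the value with the trend removed was -0.44.

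**Figure D4:**
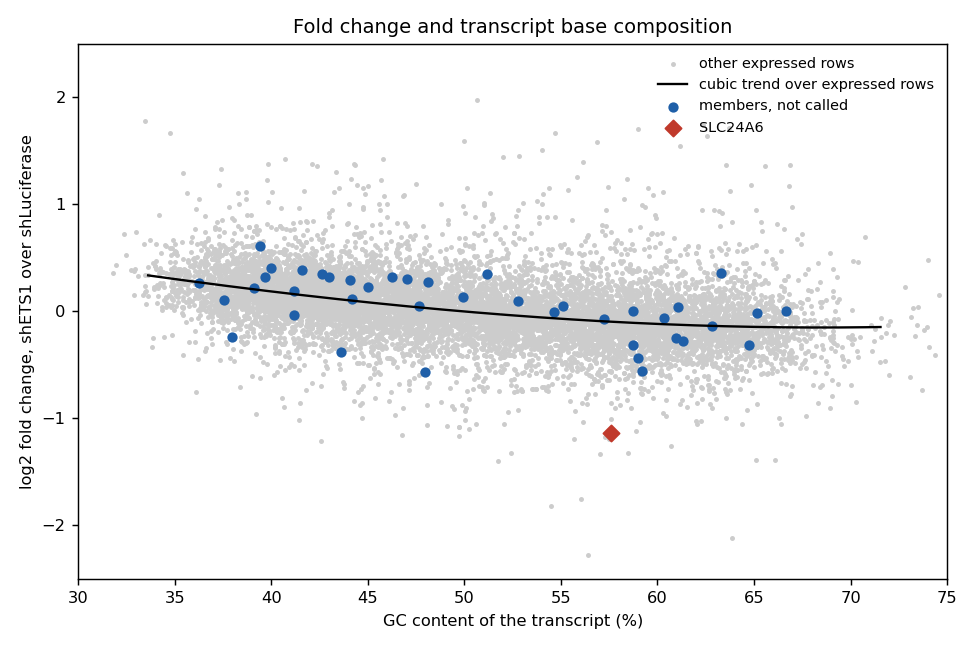
The vertical axis is the log2 fold change of shETS1 over shLuciferase, drawn against the GC content of 1 transcript per gene in percent (horizontal axis), with expressed genes in grey, their cubic trend as a black line, members in blue and SLC24A6 as a red diamond; points beyond the axes are not drawn. SLC24A6 lies at 57.6% and -1.14, below the trend value of -0.10.

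Genes that work beside these transporters were examined as 7 lists, of which 106 genes were tested. One of them was called, MT1B, a zinc-binding metallothionein, listed at 0 FPKM in shETS1 and at 0.979 FPKM in shLuciferase with q = 0.00964 in the authors' deposited table. That is 0.943% of those tested, beside 0.812% of all tested genes. At an unadjusted deposited p under 0.05 there were 7 (6.60%), beside 6.94% of all tested genes, so both shares are near the background. The median log2 fold change of the 97 tested partners averaging 1 FPKM or more was 0.04, with 53 above 0 and 44 below.

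Calcium partners, that is the mitochondrial uniporter complex, calcium pumps and store-operated channels, had none called of 22 tested and a median of -0.03. VDAC2 and VDAC1, channels of the outer mitochondrial membrane, were at 194 and 180 FPKM in shETS1 and at 177 and 182 FPKM in shLuciferase. ATP2B1, a plasma membrane calcium pump, was at 5.44 FPKM in shETS1 and 3.43 FPKM in shLuciferase, with a p-value of 0.00740 and q = 0.283 in the authors' deposited table. The log2 fold change of ATP2B1 was 0.67, and 0.43 with the GC trend removed. No other calcium partner had a deposited p under 0.05.

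Among pH and bicarbonate partners, none of 15 tested was called. The scaffold proteins of sodium-hydrogen exchange SLC9A3R1 (NHERF1) and SLC9A3R2 (NHERF2) were at 43.6 and 95.9 FPKM in shETS1 and at 66.5 and 139 FPKM in shLuciferase. Their log2 fold changes were -0.61 and -0.53 and q was 0.328 and 0.597 in the authors' deposited table. With the GC trend removed their log2 fold changes were -0.48 and -0.38. BSG, a chaperone of lactate transporters, and EZR, the membrane linker ezrin, were at 352 and 284 FPKM in shETS1 and at 436 and 208 FPKM in shLuciferase.

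In the list of volume regulation, none of 15 tested was called. ATP1B1, a subunit of the sodium pump, was at 18.4 FPKM in shETS1 and 10.6 FPKM in shLuciferase, and STK39 (SPAK), the kinase that activates NKCC1, was at 5.99 FPKM in shETS1 and 3.98 FPKM in shLuciferase. The authors' deposited table gives them q = 0.450 and q = 0.529. ATP1B3, another subunit, was at 133 FPKM in shETS1 and 145 FPKM in shLuciferase.

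Among metal partners, the calls were limited to MT1B. Of 19 tested iron genes none was called or had a deposited p under 0.05, and their median was -0.01. The ferritin chains FTL and FTH1 were at 4162 and 1257 FPKM in shETS1 and at 4523 and 993 FPKM in shLuciferase. The 16 tested zinc and copper genes, MT1B included, had a median of 0.02. The metallothionein MT2A was at 9487 FPKM in shETS1 and 10587 FPKM in shLuciferase, and the copper chaperone ATOX1 at 623 FPKM in shETS1 and 626 FPKM in shLuciferase.

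For magnesium, 11 of 13 tested partners had a log2 fold change above 0 and none was called. Their median of 0.24 was 0.09 with the GC trend removed. PTP4A2, a phosphatase that binds CNNM magnesium transporters, was at 49.6 FPKM in shETS1 and 42.0 FPKM in shLuciferase, and NIPA2 at 19.9 FPKM in shETS1 and 19.5 FPKM in shLuciferase. Of 6 tested phosphate partners none was called. STC1, the hormone stanniocalcin, was at 6.05 FPKM in shETS1 and 4.09 FPKM in shLuciferase with q = 0.628 in the authors' deposited table, whereas STC2 was at 13.4 FPKM in shETS1 and 12.5 FPKM in shLuciferase and FGFR1 at 10.2 FPKM in shETS1 and 12.2 FPKM in shLuciferase.

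**Figure D5:**
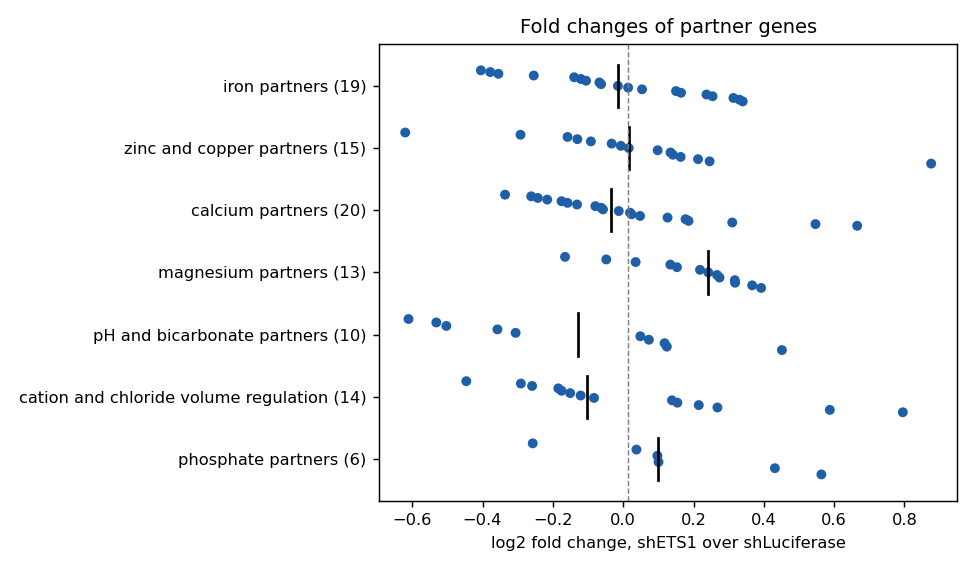
The horizontal axis gives log2 fold changes, shETS1 over shLuciferase, for tested partner genes averaging 1 FPKM or more, by list with the number of genes in parentheses. Black bars are list medians, the dashed line is the median of all such genes, 0.02, and none of the genes drawn was called, since MT1B, the one call, lies under 1 FPKM.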

How the data were processed

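Per the file headers, the authors deposited an FPKM value of shETS1 and of shLuciferase for each gene, pooled over samples, with the p-value and q-value of their comparison. The submitters' processing notes name Cufflinks 2.1.1, TopHat2 2.0.7, SAMtools 0.1.18, Bowtie2 2.0.6 and hg19; the annotation is not given in the sources used here. The authors' deposited test statistic, a score, was not used. No strand-marking step is described in the labels' protocols.

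Log2 fold changes are shETS1 over shLuciferase, computed from the FPKM values with no pseudocount; for the 72 members with both values above 0 they differed from the deposited ones by at most 0.001. Adjusting the p-values of the 11952 tested genes by Benjamini-Hochberg returned the deposited q-values within 5.16e-07, and a gene was called at q of at most 0.05. Set summaries use tested genes with a mean of at least 1 FPKM. With no values per sample, no test across samples was run here, and depth is unknown. GC content came from the GENCODE 29 transcript with the longest coding sequence, matched by current or older symbol (98.1% of expressed genes, all 41 members). Its trend was a cubic fit, whose removal was tried only on simulated data with a linear trend and constant noise. Some genes that the naming rule covers are not reported here, by name or in the plot of levels. Starts have 1 added to count from 1. Promoters are RefSeq's. Members, partner lists and tests were chosen with earlier results of these data known. Named genes are ETS1, members at 1 FPKM or more or with a deposited p under 0.05, and, per partner list, genes with a deposited p under 0.05 and the 2 most abundant; other named genes (low members, neighbours, markers, other SLC calls) were chosen after their values were seen. Tools were Python 3.11.15, pandas 2.3.3, NumPy 2.4.6 and matplotlib 3.10.9.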

Additional observations from a re-analysis of the deposited data

How the results depend on the processing

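SLC24A6 was also the single called member at a q-value of at most 0.10 and at an unadjusted p under 0.05. The same held with a mean of at least 1 or 5 FPKM, and without members whose locus overlaps an expressed gene. These settings reuse the same deposited p-values and are not independent checks of the call. SLC24A6 averaged 20.4 FPKM and overlapped no expressed gene. The next member, SLC4A11, had p = 0.0522 and q = 0.737 in the authors' deposited table. The median log2 fold change of members, 0.05, was 0.04 with a mean of at least 5 FPKM, with no minimum and centred on all expressed genes, and 0.06 with the GC trend removed. The 16 members below 0 became 9 at a mean of at least 5 FPKM, where fewer genes enter, 18 centred on all expressed genes, 11 with 1 FPKM added and counting those under -0.1, and 14 with the GC trend removed, an alternative added after seeing the data. With that trend removed, 6 of 41 members changed sign on unrounded values: SLC26A11, SLC39A1, SLC39A3 and SLC9A8 turned above 0, and SLC30A7 and SLC39A10 below. Centred, SLC26A6 and SLC39A4, nearly equal between the groups, turned below 0. With 1 FPKM added no member changed sign, and none of those that did was called. The ETS1 log2 fold change was -1.17 with 1 FPKM added, -1.35 with the GC trend removed and -1.23 centred. The share of member promoter windows with the letters searched was 89.7% for GGAA, 10.3% for CCGGAAG and 2.80% for CCGGAAGT, the longer letters also added after seeing the data. No paired analysis was possible because the table holds 1 value per group and none per sample, and for the same reason no replicate could be left out.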
